A study of Mus musculus with 24 samples.

Results

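The genes described here are Atoh1 and 9 further genes of the cerebellar granule neuron lineage: Barhl1, Nhlh1, Nhlh2, Insm1, Neurod1, Pax6, Meis1, Dcx and Cntn2. They were taken by symbol, as the 10 of 20893 genes on the array whose probe sets carry one of these names and no other, and they rest on 104 of the 241576 probe sets. RNA was measured on 24 Affymetrix gene arrays, 1 array per sample. The samples were 8 cerebellar tumours of hGFAP:GnasCKO mice and 8 of Oligo1:GnasCKO mice, called hGFAP and Oligo1 tumours here, 5 wild-type adult cerebella and 3 wild-type developing cerebella. The tumour mice carry a conditional knockout (CKO) of Gnas, which encodes the stimulatory G protein subunit Gsα, and the deleted exon and the cells in which each Cre is active were not described in the labels. The names of tumours 5 to 8 give the drivers as hGFAPCre and Oligo1Cre. Tumours were taken at endpoint, their age is not given, and all were of mixed C57BL/6 and 129 strain. The adult samples were of postnatal days 60, 60, 95 and 122 and of an age recorded as adult. Those of days 95 and 122 were C57BL/6 and the other 3 of the mixed strain. The developing samples were all C57BL/6, of embryonic day 15, embryonic day 18 and postnatal day 0, so that each age was 1 array. In tests they form 1 group, whose spread includes change with age. The labels call the tumours biological replicates and do not say whether the normal samples came from 1 animal each, so p-values measure the spread between these samples. The series title places the tumours with medulloblastoma driven by Sonic Hedgehog, a mitogen of granule precursors.

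Granule neurons arise from precursors of the rhombic lip that spread over the cerebellar surface, divide there in the external granule layer and later migrate inward. Atoh1, a basic helix-loop-helix transcription factor, is needed for these precursors to form and is switched off as they leave the cell cycle. The other genes mark successive steps. Barhl1, Nhlh1, Nhlh2 and Insm1 are transcription factors of precursors and newborn neurons. Neurod1, Pax6 and Meis1 are transcription factors that the lineage carries from precursors into neurons. Dcx and Cntn2 are proteins of migrating neurons and their growing axons.

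Because 4 of the members (Atoh1, Nhlh1, Nhlh2 and Neurod1) are basic helix-loop-helix factors, a class that binds E-boxes, the 250 bases before the RefSeq start (build GRCm38.p6) were searched for CANNTG, read on both strands at once since it is its own complement. They are printed for the 3 members of this class that were called higher in both tumour groups against adult cerebellum, 5′ to 3′ on the gene's strand, with matches to CANNTG in capitals. The window of Atoh1 lies on the plus strand at chr6:64728875-64729124, that of Nhlh1 on the minus strand at chr1:172057597-172057846 and that of Nhlh2 on the plus strand at chr3:102009895-102010144.
Atoh1: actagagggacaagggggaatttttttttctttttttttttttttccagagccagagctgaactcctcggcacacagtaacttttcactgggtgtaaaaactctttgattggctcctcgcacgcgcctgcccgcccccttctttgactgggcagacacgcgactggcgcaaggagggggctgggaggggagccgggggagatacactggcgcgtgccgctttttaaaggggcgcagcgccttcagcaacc
Nhlh1: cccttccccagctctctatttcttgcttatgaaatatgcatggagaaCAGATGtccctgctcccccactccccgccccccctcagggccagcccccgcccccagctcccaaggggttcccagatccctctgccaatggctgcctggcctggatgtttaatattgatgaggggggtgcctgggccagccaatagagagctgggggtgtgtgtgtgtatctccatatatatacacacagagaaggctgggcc
Nhlh2: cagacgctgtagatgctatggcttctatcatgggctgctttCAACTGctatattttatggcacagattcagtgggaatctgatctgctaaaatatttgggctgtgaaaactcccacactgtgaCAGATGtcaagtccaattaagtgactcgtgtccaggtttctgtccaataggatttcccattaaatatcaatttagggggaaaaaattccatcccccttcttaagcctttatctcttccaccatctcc
The window of Atoh1 held no CANNTG. That of Nhlh1 held 1, at 203 bases before the start, and that of Nhlh2 held 2, at 209 and 127 bases. CANNTG was found in 8 of the 12 windows of the 9 members that the RefSeq table lists, against 66.2% of all 32851 windows. The narrower CAGATG (or CATCTG on the other strand), which CANNTG includes, was found in the windows of Nhlh1 and Nhlh2 and in 14.4% of all windows. CAGCTG, likewise included in CANNTG, was found in both windows of Barhl1, at 15 and 99 bases before the start, and in 13.0% of all windows. These matches are letters in a window and show no binding.

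The labels were first set against the targeted gene and cell markers. Gnas averaged 8.16 ± 0.73 in hGFAP tumours and 7.82 ± 0.54 in Oligo1 tumours (log2, SD, n = 8 each), against 9.69 to 9.87 in adult and 9.87 to 9.98 in developing cerebellum. The 10 tested genes of mature granule neurons, such as the receptor subunit gene Gabra6, had a mean log2 level of 7.62 to 11.15 in hGFAP tumours, 6.69 to 9.87 in Oligo1 tumours, 11.39 to 11.66 in adult arrays and 7.14 to 7.87 in developing arrays. All 7 tested microglial genes were higher in both tumour groups than in adult and developing cerebellum. The array of hGFAP tumour 5 stood apart from the other tumours: its mature granule mean was 11.15, its mean over 7 proliferation genes was 7.01 against 9.97 to 11.10 in the other hGFAP tumours, and its microglial mean was 7.50 against 9.27 to 9.59. The main results of the hGFAP comparisons are given with and without it. All arrays were fitted together, so it also enters the spread behind the Oligo1 tests and the adult against developing tests. Those tests were not refitted without this array alone. In whole tissue, fewer cells of a type and less RNA per cell cannot be told apart.

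Of the 10 genes, 7 were higher in hGFAP tumours than in adult cerebellum and none was lower, and in Oligo1 tumours 7 were higher and Neurod1 was lower. The 7 were the same in both: Atoh1, Barhl1, Nhlh1, Nhlh2, Insm1, Meis1 and Dcx. A gene was called at a limma adjusted p under 0.05 over all 10983 genes tested, after genes that failed to exceed the table's median of 7.61 on at least 3 arrays were dropped. All 10 members passed that filter. All values are log2 intensities, and levels are not compared between genes. Of all genes tested, 24.2% were called higher and 29.8% lower in hGFAP tumours, and 35.8% and 34.5% in Oligo1 tumours. The median difference over the 10 members was 2.44 in hGFAP and 2.87 in Oligo1 tumours, against -0.02 and 0.04 over all genes. Both comparisons use the same 5 adult arrays. For 5 members (Atoh1, Barhl1, Nhlh1, Insm1 and Dcx) every adult array lay below 7.61, so they passed the filter through the tumour and developing arrays. These 5 are among the 7 called higher and enter the median difference above, so both carry that limit. The values used here carry no detection calls, so whether those adult readings exceed background was not tested, and the sizes of these 5 differences from adult are not ranked or turned into folds.

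Atoh1, the defining factor of granule precursors, rests on 1 probe set. Its log2 level had a lowest, median and highest value of 6.62, 11.32 and 12.18 in hGFAP tumours and of 10.50, 11.72 and 12.31 in Oligo1 tumours. The 5 adult arrays read 4.73, 4.71, 5.05, 5.37 and 5.05, and embryonic day 15, embryonic day 18 and postnatal day 0 read 8.85, 9.60 and 9.55. Every tumour lay above every adult array, and all tumours other than hGFAP tumour 5 lay above every developing array. The difference from adult cerebellum was 5.83 (SE 0.60, limma adjusted p = 4.09e-07) in hGFAP tumours. It was 6.65 (SE 0.60, limma adjusted p = 2.13e-08) in Oligo1 tumours. Without hGFAP tumour 5 the hGFAP difference was 6.43 (SE 0.27).

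Nhlh1, a helix-loop-helix factor of young neurons, followed the same order of groups. It read 7.44, 11.33 and 11.63 (lowest, median, highest) in hGFAP tumours and 11.12, 11.53 and 11.73 in Oligo1 tumours. The adult arrays read 4.85, 5.06, 5.78, 5.18 and 5.03, and the developing arrays, in order of age, 8.57, 9.77 and 9.72. It was 5.69 above adult in hGFAP tumours (SE 0.48, limma adjusted p = 3.64e-08) and 6.27 above adult in Oligo1 tumours (SE 0.48, adjusted p = 3.75e-09). All 16 tumours were above the adult arrays, and among the 7 hGFAP tumours other than tumour 5 its SD was 0.28.

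Insm1, a zinc finger repressor that acts as progenitors turn into neurons, read 8.42, 11.63 and 11.86 in hGFAP tumours and 11.46, 11.65 and 11.98 in Oligo1 tumours (lowest, median, highest). Adult arrays read 5.33, 5.89, 4.43, 5.52 and 5.90, and developing arrays 9.63, 11.22 and 11.10. Its difference from adult was 5.77 in hGFAP (SE 0.42, limma adjusted p = 4.88e-09) and 6.27 in Oligo1 tumours (SE 0.42, adjusted p = 8.99e-10). The 8 Oligo1 tumours spanned only 0.52 on the log2 scale. They lay above all 3 developing arrays, while 6 of the 8 hGFAP tumours did.

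Barhl1, a homeobox factor that acts downstream of Atoh1, read 7.95, 10.22 and 11.02 in hGFAP tumours and 10.13, 10.57 and 10.80 in Oligo1 tumours. Adult arrays read 6.82, 6.98, 6.52, 7.25 and 6.99 and developing arrays 8.68, 9.66 and 9.80. Tumours of both kinds lay above every adult array, by 3.09 in hGFAP (SE 0.33, limma adjusted p = 5.79e-07) and 3.59 in Oligo1 tumours (SE 0.33, adjusted p = 2.69e-08). Nhlh2, the close relative of Nhlh1, was above the filter value in all arrays. It read 8.16, 11.21 and 11.65 in hGFAP tumours and 10.27, 11.35 and 11.55 in Oligo1 tumours, against 8.98, 8.84, 9.11, 8.99 and 9.33 in adult and 10.18, 10.20 and 10.56 in developing arrays. Its rise over adult was 1.78 in hGFAP tumours (SE 0.40, limma adjusted p = 0.000837) and 2.14 in Oligo1 tumours (SE 0.40, adjusted p = 6.14e-05). In hGFAP tumour 5 it lay below every adult array, at 8.16. With tumours 5 to 8 alone, the hGFAP difference of Nhlh2 was 1.11 and did not pass (adjusted p = 0.0686).

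The 3 factors that the lineage keeps into neurons were not alike. Meis1, a homeobox partner of Pbx proteins, read 10.49, 11.17 and 11.34 in hGFAP tumours and 11.11, 11.19 and 11.29 in Oligo1 tumours, against 10.10, 9.93, 10.45, 10.28 and 10.14 in adult and 10.79, 10.91 and 11.03 in developing arrays. All 16 tumours were above all adult arrays, by 0.88 in hGFAP (SE 0.12, limma adjusted p = 7.43e-06) and 1.01 in Oligo1 tumours (SE 0.12, adjusted p = 3.88e-07). The Oligo1 tumours differed little among themselves (SD 0.06).

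Neurod1, a helix-loop-helix factor that granule neurons need to differentiate and survive, was lower in Oligo1 tumours than in adult cerebellum. It read 11.08, 12.21 and 12.64 in hGFAP tumours and 10.48, 11.69 and 12.28 in Oligo1 tumours. The adult arrays were tight, at 12.55, 12.51, 12.56, 12.47 and 12.40, and the developing arrays read 10.05, 11.81 and 11.91. All 8 Oligo1 tumours lay below all adult arrays (difference -0.98, SE 0.31, limma adjusted p = 0.00772). In hGFAP tumours the difference was -0.34 (95% interval -0.98 to 0.31, adjusted p = 0.368), with 6 of 8 tumours below the lowest adult array and 1 above the highest.

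Pax6, a paired homeobox factor of the rhombic lip lineage, read 9.98, 10.53 and 11.10 in hGFAP tumours and 9.33, 9.66 and 11.04 in Oligo1 tumours. Adult arrays read 10.35, 10.44, 10.78, 10.53 and 10.50, and developing arrays 9.63, 11.12 and 11.19. In hGFAP tumours the difference from adult was 0.04 (95% interval -0.54 to 0.62, limma adjusted p = 0.916). In Oligo1 tumours it was -0.62 (95% interval -1.19 to -0.04, adjusted p = 0.0529), with 6 of 8 tumours below the lowest adult array. It stayed above the threshold under 18 of 25 alternatives, with adjusted p from 0.00864 to 0.243. The lowest came without Oligo1 tumour 4, the highest of its group at 11.04, and with each array centred on its median it was 0.0385.

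Dcx, a microtubule-binding protein of migrating neurons, read 8.79, 11.42 and 11.80 in hGFAP tumours and 10.80, 11.20 and 11.48 in Oligo1 tumours. The adult arrays read 7.01, 7.48, 7.19, 7.13 and 7.21, and the developing arrays 12.25, 12.12 and 11.92. Dcx therefore stood between adult and developing cerebellum in all 16 tumours, above every adult and below every developing array. Dcx was higher than in adult cerebellum, by 3.89 in hGFAP (SE 0.33, limma adjusted p = 3.64e-08) and by 3.98 in Oligo1 tumours (SE 0.33, adjusted p = 9.88e-09). Cntn2, an axonal adhesion protein of premigratory granule neurons also known as TAG-1, read 9.11, 10.79 and 11.29 in hGFAP tumours and 8.83, 10.60 and 11.09 in Oligo1 tumours. Adult arrays read 10.60, 10.49, 10.87, 10.62 and 10.56 and developing arrays 9.67, 9.47 and 9.56. It did not pass against adult in hGFAP (0.06, 95% interval -0.63 to 0.75, limma adjusted p = 0.896) or in Oligo1 tumours (-0.28, interval -0.97 to 0.42, adjusted p = 0.471).

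**Figure D1:**
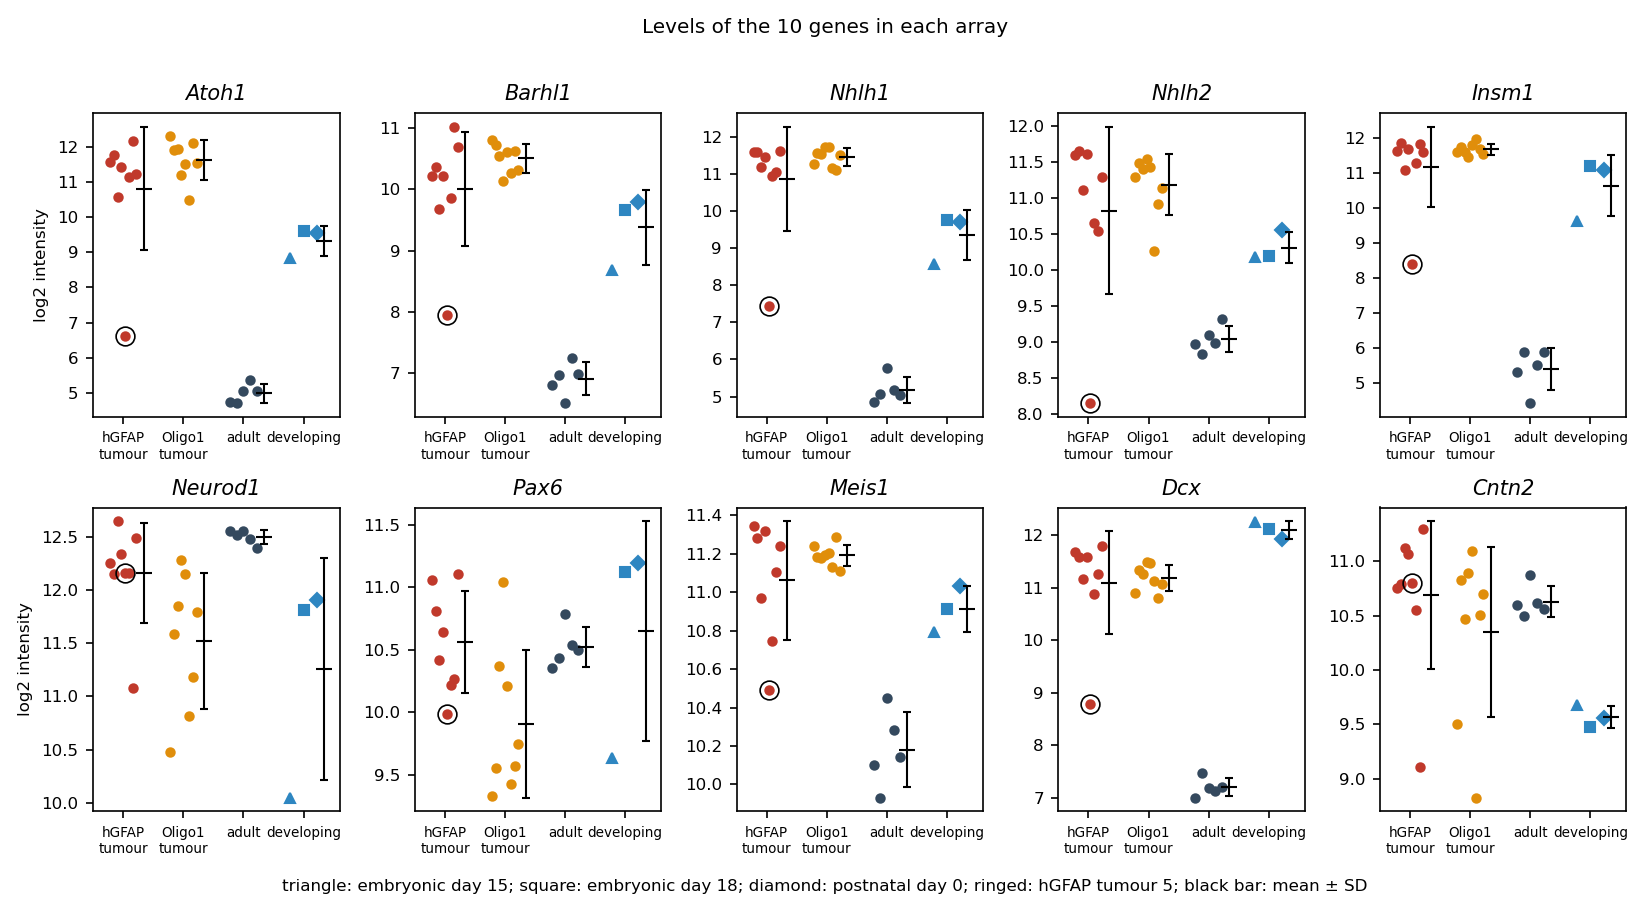
Log2 intensity of each of the 10 genes (vertical axes, 1 panel a gene) in hGFAP tumours, Oligo1 tumours, adult and developing cerebellum; points are arrays and black bars the mean ± SD. The ringed hGFAP tumour 5 lies at 6.62 for Atoh1 and 8.79 for Dcx, far below the other 7 hGFAP tumours, but at 12.16 for Neurod1 and 10.80 for Cntn2, among them.

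The counts of genes whose arrays did not overlap are given as a description. All 8 hGFAP tumours lay above all adult arrays for 6 members and below them for 0, as for 5.15% and 14.1% of all genes tested. All 8 Oligo1 tumours lay above them for 7 members and below them for 1, as for 26.1% and 25.3% of all genes.

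Set against developing cerebellum, where granule precursors are being made, the tumours differed by less. In Oligo1 tumours 3 members were higher, Atoh1, Barhl1 and Nhlh1, and in hGFAP tumours 2 were higher, Nhlh1 and Cntn2. No member passed as lower in either group. Pax6 in Oligo1 tumours stood at -0.74 (SE 0.33, limma adjusted p = 0.0682), with 4 of 8 tumours below the lowest developing array. It passed as lower with arrays centred (adjusted p = 0.0379), with the mean of probe sets (0.044), with array weights (0.00168), without embryonic day 15 (-1.25, adjusted p = 0.0072) and without Oligo1 tumour 4 (adjusted p = 0.0161). Of all genes, 27.5% were called higher and 19.9% lower in Oligo1 tumours, and 15.0% and 13.3% in hGFAP tumours, so that these counts of members are close to the background. The 2 comparisons share the 3 developing arrays. Each is of another age, so the mean and spread of this group mix ages as well as samples. The differences for Atoh1 were 1.48 in hGFAP tumours (SE 0.71, limma adjusted p = 0.125) and 2.30 in Oligo1 tumours (SE 0.71, 4.92-fold, adjusted p = 0.0112). Those for Nhlh1 were 1.51 in hGFAP (SE 0.57, adjusted p = 0.0492) and 2.10 in Oligo1 tumours (SE 0.57, adjusted p = 0.00468). Those for Barhl1 were 0.62 in hGFAP (SE 0.39, adjusted p = 0.258) and 1.12 in Oligo1 tumours (SE 0.39, adjusted p = 0.0232). Cntn2 was 1.12 above developing cerebellum in hGFAP tumours (SE 0.40, adjusted p = 0.0377) and stood at 0.78 in Oligo1 tumours (SE 0.40, adjusted p = 0.107). All Oligo1 tumours lay above all developing arrays for 5 members, as for 25.3% of genes tested. For hGFAP tumours this held for 0 members, against 9.91% of genes. In a fit of the Oligo1 and developing arrays alone, 6 members were higher and 1 lower, against 30.2% and 20.3% of genes. Nhlh2, Insm1 and Meis1 then also passed as higher (limma adjusted p = 0.0105, 0.00833 and 0.0151). A fit of the hGFAP and developing arrays alone called 0 members, against 10.9% of genes higher and 10.7% lower.

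Leaving out the embryonic day 15 array ended the Oligo1 calls of Atoh1 (2.05, limma adjusted p = 0.0637) and Barhl1 (0.77, adjusted p = 0.185). With tumours 5 to 8 of both groups alone, the same 2 calls ended (adjusted p = 0.0956 and 0.136), at differences of 2.09 and 1.08. That fit kept hGFAP tumour 5 in the shared spread.

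Strain and group are tied here, since the developing arrays were C57BL/6 and the tumours mixed, and only the adult arrays can estimate a strain term. With that term 0 members passed by limma in either tumour group, against 2.37% of genes higher and 4.70% lower in hGFAP and 4.62% and 8.59% in Oligo1 tumours. The differences were not smaller for most of the genes called before, but their SE was larger. In Oligo1 tumours Atoh1 stood at 2.68 (SE 1.22), Nhlh1 at 2.59 (SE 0.97) and Barhl1 at 1.07 (SE 0.68), and in hGFAP tumours Nhlh1 stood at 2.01 (SE 0.97) and Cntn2 at 1.31 (SE 0.68).

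The hGFAP count depended on tumour 5. Without it, 7 members passed against developing cerebellum: Atoh1 at 2.08 (SE 0.32, limma adjusted p = 2.93e-05), Nhlh1 at 2.00, Nhlh2 at 0.90, Insm1 at 0.93, Barhl1 at 0.91 and Cntn2 at 1.10 were higher, and Dcx at -0.67 (SE 0.17, adjusted p = 0.00395) was lower. Of all genes, 25.4% were then called higher and 15.4% lower. Leaving out any 1 other array gave 0 to 2 calls, and each such fit ended the Nhlh1 call. Over all 22 alternatives the Nhlh1 call held in 7 and the Cntn2 call in 11. Dcx, for which all 8 hGFAP and all 8 Oligo1 tumours lay below all 3 developing arrays, had differences of -1.001 (SE 0.39, adjusted p = 0.0579) and -0.92 (SE 0.39, adjusted p = 0.0564) with all arrays kept. Groups lie below without overlap in this way for 11.4% of all genes in hGFAP and 16.8% in Oligo1 tumours. With arrays centred on their medians, Dcx passed as lower in both (adjusted p = 0.027 in hGFAP and 0.0216 in Oligo1 tumours). With array weights it did too (adjusted p = 0.00129 and 1.1e-05). With only the 2 groups fitted, Dcx passed as lower in Oligo1 tumours (adjusted p = 0.000689) but not in hGFAP tumours. With a strain term it passed in neither (adjusted p = 0.409 in hGFAP and 0.339 in Oligo1 tumours).

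**Figure D2:**
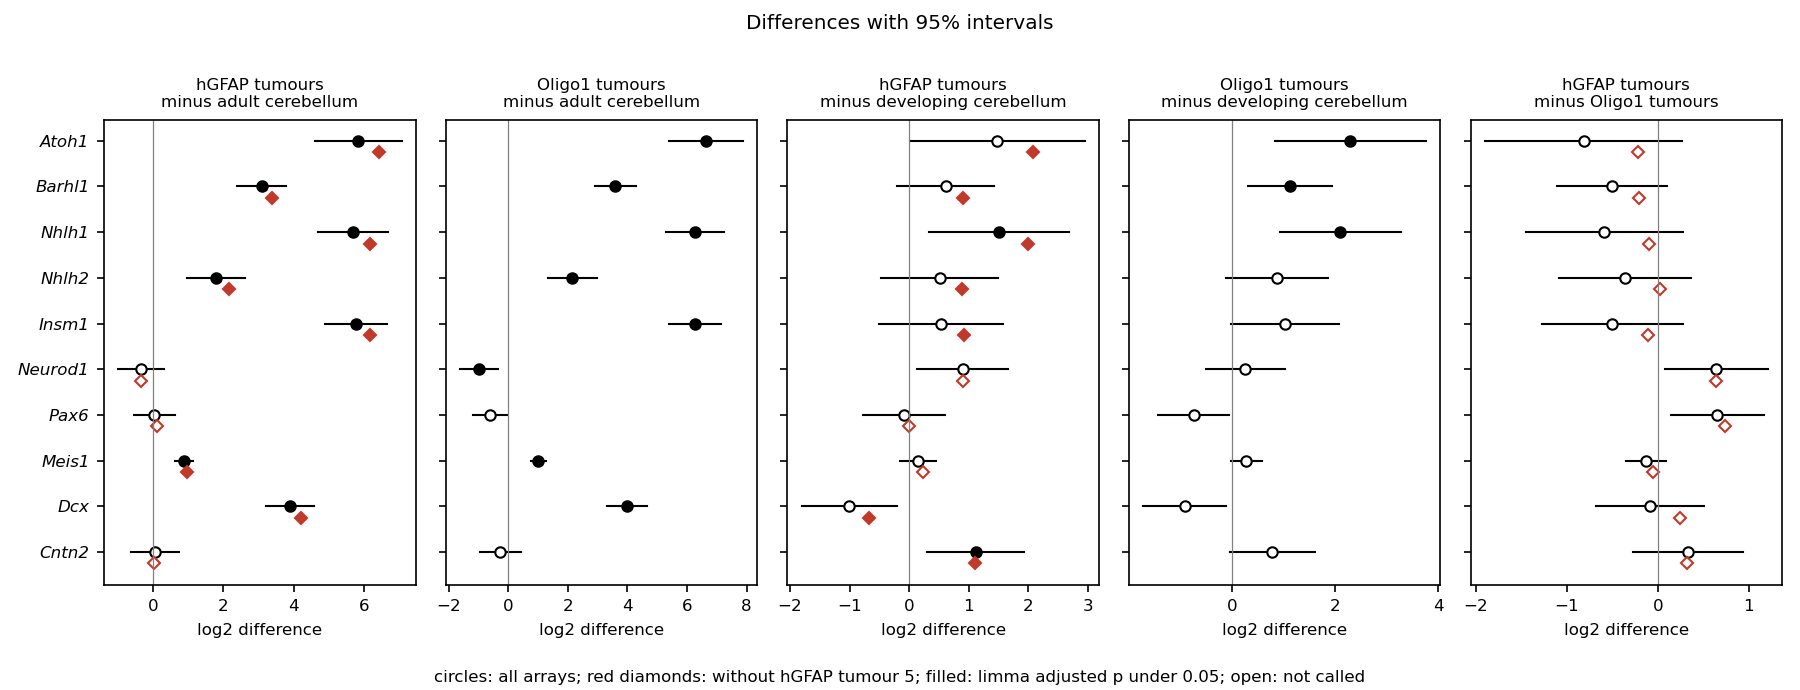
Log2 differences (horizontal axes) of the 10 genes, hGFAP and Oligo1 tumours minus adult cerebellum, minus developing cerebellum, and hGFAP minus Oligo1 tumours; circles with 95% intervals use all arrays, red diamonds leave out hGFAP tumour 5, and filled symbols passed the test. Against developing cerebellum, Atoh1 in hGFAP tumours is open at 1.48 with all arrays and filled at 2.08 without that tumour.

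The 3 developing arrays give the course toward birth. From embryonic day 15 to embryonic day 18, 4 of the 10 members were at least 2-fold higher (Neurod1 by 1.76, Insm1 by 1.58, Pax6 by 1.49 and Nhlh1 by 1.20 on the log2 scale), a size reached by 2.38% of all genes. None was 2-fold lower, against 1.03% of genes. From embryonic day 18 to postnatal day 0 no member differed by 2-fold in either direction, against 0.683% of genes higher and 0.191% lower. Between embryonic day 15 and postnatal day 0, the difference was 1.86 for Neurod1 (3.62-fold), 1.56 for Pax6, 1.46 for Insm1, 1.15 for Nhlh1 and 1.12 for Barhl1, 5 members at least 2-fold higher, against 4.18% of genes. None was 2-fold lower, against 0.965%. Atoh1 differed by 0.71, Nhlh2 by 0.38 and Meis1 by 0.24. Only Dcx and Cntn2 read lower at birth than at embryonic day 15, by -0.33 and -0.12. With 1 array per age there is no test. The mean of 17 genes of precursors and the Sonic hedgehog response read 8.88, 9.74 and 9.88 over the same ages, and that of 7 proliferation genes 8.74, 9.75 and 10.09.

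**Figure D3:**
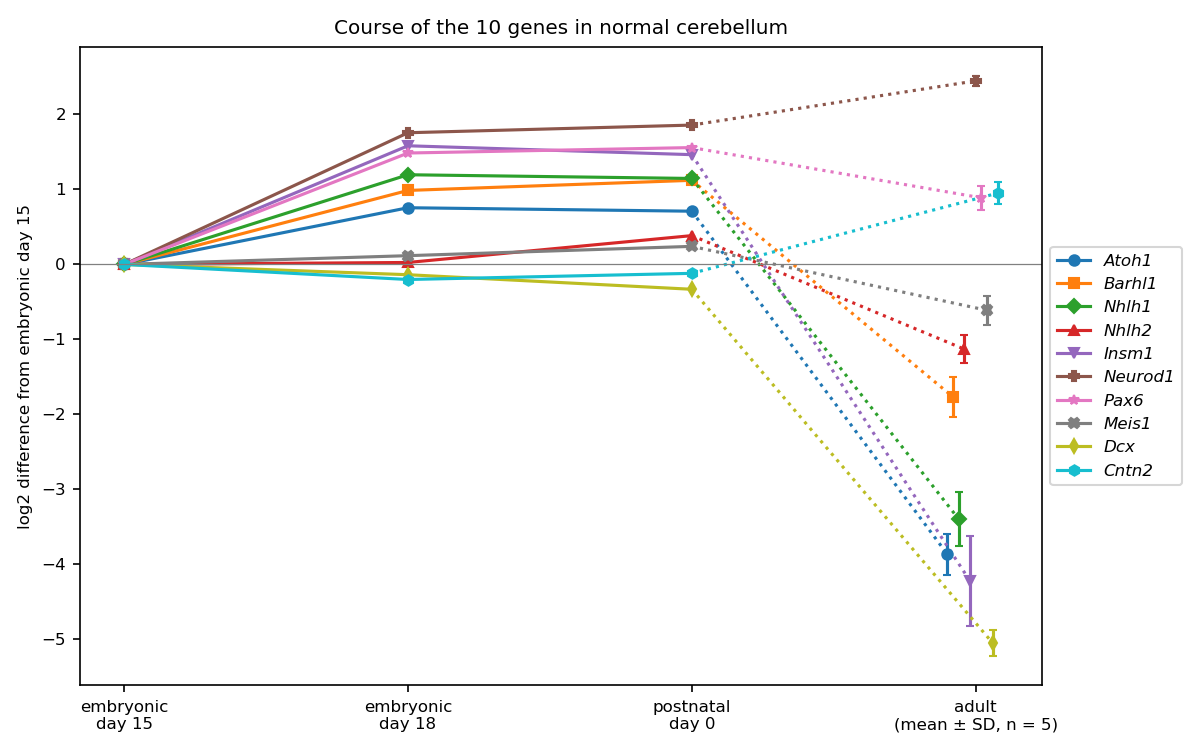
Log2 difference from embryonic day 15 (vertical axis) of the 10 genes at embryonic day 18, postnatal day 0 and in adult cerebellum (mean ± SD of 5 arrays); the dotted stretch joins birth to adult. Neurod1 stands highest at every age after the first, and Dcx, Insm1, Atoh1 and Nhlh1 end more than 3 below their value at embryonic day 15.

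In adult against developing cerebellum, 7 members were lower and 2, Neurod1 and Cntn2, were higher. Of all genes, 20.2% were called lower and 25.5% higher. All 5 adult arrays lay below all 3 developing arrays for the same 7 members and above them for the same 2, as for 26.1% and 30.2% of all genes. Atoh1 (-4.35, SE 0.77, limma adjusted p = 8.82e-05), Nhlh1 (-4.17, SE 0.61, adjusted p = 1.15e-05), Insm1 (-5.23, SE 0.54, adjusted p = 1.51e-07), Dcx (-4.89, SE 0.42, adjusted p = 1.12e-08) and Barhl1 (-2.47) were lower, with every adult reading under 7.61. Nhlh2 differed by -1.27 and Meis1 by -0.73. Neurod1 was 1.24 higher in adult cerebellum (SE 0.40, adjusted p = 0.0142) and Cntn2 1.06 higher (SE 0.43, adjusted p = 0.047). Pax6 did not pass (-0.13, 95% interval -0.86 to 0.61). The calls of Nhlh2 (adjusted p = 0.0467) and Cntn2 were lost in each of the 8 fits that left out 1 adult or developing array, and that of Neurod1 was lost without embryonic day 15 (0.64, adjusted p = 0.199). A strain term also ended the calls of Neurod1 (1.26, adjusted p = 0.0623), Nhlh2 (-1.27, adjusted p = 0.141) and Cntn2 (1.18, adjusted p = 0.102), and left the other 6.

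Set against postnatal day 0 alone, Atoh1 and Nhlh1 were higher in 7 of 8 hGFAP and 8 of 8 Oligo1 tumours, while Pax6 and Dcx were higher in 0 of the 16. Neurod1 lay above the newborn value in 7 hGFAP tumours and in 2 Oligo1 tumours. Cntn2 lay above it in 7 hGFAP and 6 Oligo1 tumours. These are counts against 1 array and carry no test.

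Between the tumour groups no member passed, at 0 of 10 by limma's adjusted p, and 2 of 10, Pax6 and Neurod1, had an unadjusted p under 0.05. Of all genes, 10.4% were called higher and 8.54% lower in hGFAP than in Oligo1 tumours (8.70% and 11.7% after quantile normalization again). With only the tumour arrays fitted, the shares were 1.30% and 0.719%, so most of these calls rest on a spread shared with the normal arrays. They were 11.8% and 5.54% with tumours 1 to 4, and 0.0273% and 0.0364% with tumours 5 to 8. The groups overlapped for all 10 members, 0 lying wholly above and 0 wholly below, against 0.300% and 0.364% of all genes. Pax6 differed by 0.66 (95% interval 0.15 to 1.16, limma adjusted p = 0.0589) and Neurod1 by 0.64 (interval 0.08 to 1.21, adjusted p = 0.0876). Atoh1 differed by -0.82 (interval -1.90 to 0.27, adjusted p = 0.24), and by -0.22 without hGFAP tumour 5. Without hGFAP tumour 7, Neurod1 and Pax6 both passed (adjusted p = 0.029 and 0.0453), and Pax6 also passed without Oligo1 tumour 4 (adjusted p = 0.0243). With array weights both passed as well (adjusted p = 0.0296 for Pax6 and 0.0334 for Neurod1). The mature granule genes differed in the same direction: 5 of 10 were called higher in hGFAP than in Oligo1 tumours, and 1 of 10 without tumour 5. Both fits kept the normal arrays, and the gene lists were not refitted with tumour arrays alone. The part of mature granule neurons in the differences of Pax6 and Neurod1 was not tested.

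Among the Oligo1 tumours, Cntn2 and Neurod1 had the widest spread (SD 0.78 and 0.64), and among the 7 hGFAP tumours other than tumour 5 Cntn2 did (SD 0.73). Oligo1 tumours 1 and 6 had the lowest Neurod1 (10.48 and 10.81) and the lowest Cntn2 (9.50 and 8.83) of their group. hGFAP tumour 7 had the lowest Neurod1 (11.08) and Cntn2 (9.11) of its group, along with the highest Atoh1 (12.18) and Barhl1 (11.02). Across the 8 Oligo1 tumours the correlation of Neurod1 with Cntn2 was r = 0.844 (rho = 0.786, exact permutation p = 0.00806 for r and 0.0279 for rho, two-sided), and r = 0.652 without the 2 tumours farthest from the median of Neurod1. Across the 7 hGFAP tumours other than tumour 5, which stands apart, it was r = 0.979 (rho = 0.857, exact permutation p = 0.00377 and 0.0238) and 0.937 without the farthest 2. Nhlh1 and Dcx correlated at r = 0.88 (rho = 0.905, exact permutation p = 0.0057 and 0.00456) in Oligo1 and r = 0.951 (rho = 0.929, exact permutation p = 0.00317 and 0.00675) in the hGFAP tumours, and at 0.948 and 0.962 without the farthest 2. Atoh1 and Neurod1 ran in opposite directions at r = -0.829 in the hGFAP tumours (rho = -0.786, exact permutation p = 0.0198 and 0.048), which came to -0.412 without the farthest 2, so that it rests on them. In Oligo1 tumours it was r = -0.141 (rho = -0.429, exact permutation p = 0.746 and 0.299), and -0.872 without the farthest 2. Of the 90 pairs computed, 0 passed Benjamini-Hochberg adjustment over all 90, with a lowest adjusted p of 0.0664 in the exact permutation test, while 11 of 45 in Oligo1 and 15 of 45 in hGFAP tumours had an unadjusted p under 0.05.

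**Figure D4:**
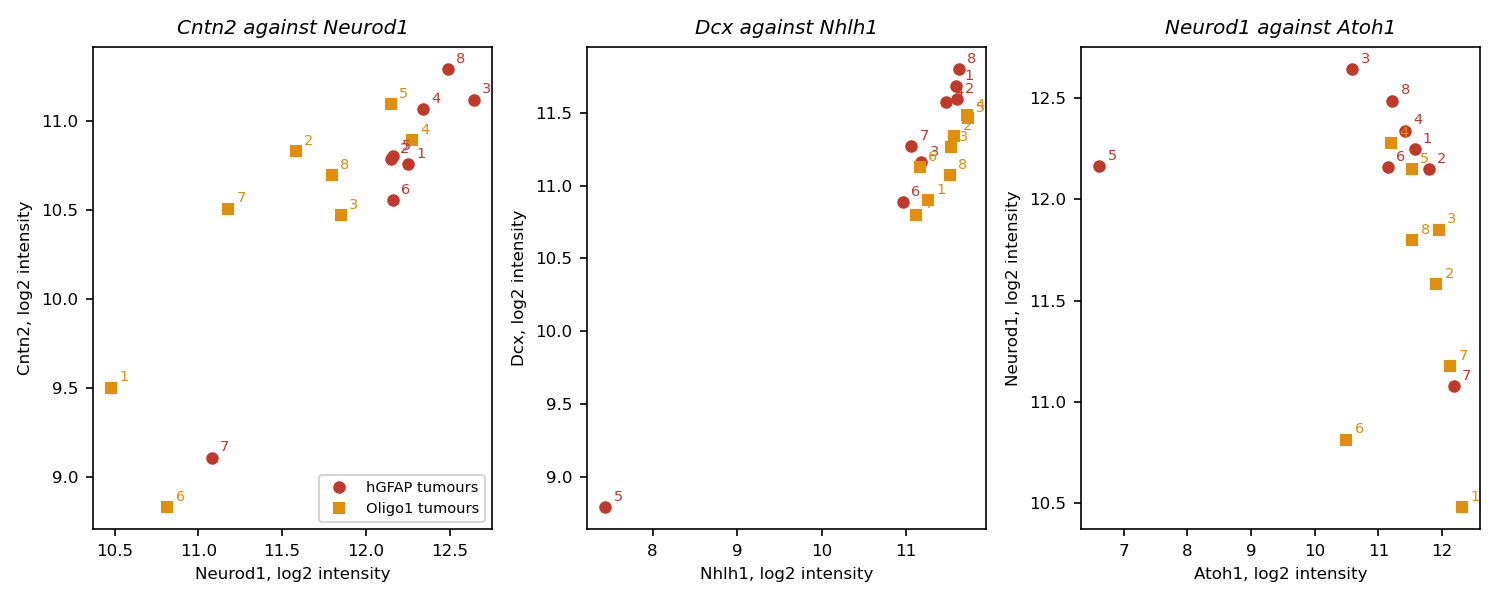
Log2 levels of Cntn2 against Neurod1, Dcx against Nhlh1 and Neurod1 against Atoh1 in the 8 hGFAP (circles) and 8 Oligo1 tumours (squares), numbered by replicate. Cntn2 and Neurod1 are low together in hGFAP tumour 7 and Oligo1 tumours 1 and 6, and hGFAP tumour 5 sits alone at 6.62 for Atoh1 with a Neurod1 of 12.16.

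The mean of the mature granule genes was 7.62 in hGFAP tumour 7, the lowest of its group, and 6.75 and 7.04 in Oligo1 tumours 1 and 6. It was 6.69 in Oligo1 tumour 2, the lowest of all tumours, where Neurod1 read 11.58 and Cntn2 10.83. In hGFAP tumour 5 it was 11.15, where Neurod1 read 12.16 and Cntn2 10.80. The part of such cells in the spread of Neurod1 and Cntn2 was not tested.

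Probe sets of the members other than Atoh1 show how evenly the signal runs along a gene. Against adult cerebellum, all 7 probe sets of Barhl1, both of Nhlh1, all 7 of Nhlh2, both of Insm1 and all 12 of Dcx were called higher in both tumour groups, over a fit of all probe sets. Of 17 for Meis1, 16 were called higher in both. For Neurod1, 5 of 6 were called lower in Oligo1 tumours. For Pax6, all 20 read lower in Oligo1 tumours than in adult cerebellum and 9 were called. All 20 read higher in hGFAP than in Oligo1 tumours, and 2 were called.

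Probe set 10474313 of Pax6 averaged 8.57 in hGFAP and 7.31 in Oligo1 tumours, against 9.17 in adult and 9.94 in developing cerebellum. Its difference of Oligo1 tumours from developing cerebellum was -2.62 ( limma adjusted p = 0.00768), while the median of the 20 was -0.82. Probe set 10474328 of the same gene was 1.48 higher in hGFAP than in Oligo1 tumours (adjusted p = 0.0403). Probe set 10384512 of Meis1 averaged 8.83 in hGFAP tumours, 8.95 in Oligo1 tumours, 8.43 in adult and 10.58 in developing cerebellum, with 10.59, 10.49 and 10.68 at the 3 developing ages. Its difference of adult from developing cerebellum was -2.15 (adjusted p = 0.0425), while the median of the 17 was -0.86. Probe set 10357735 of Cntn2 read 10.81, 11.24 and 9.54 at embryonic day 15, embryonic day 18 and postnatal day 0, and was the 1 of 30 that averaged lower in adult than in developing cerebellum (-0.41, adjusted p = 0.492). Which exons these probe sets cover was not analysed here.

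**Figure D5:**
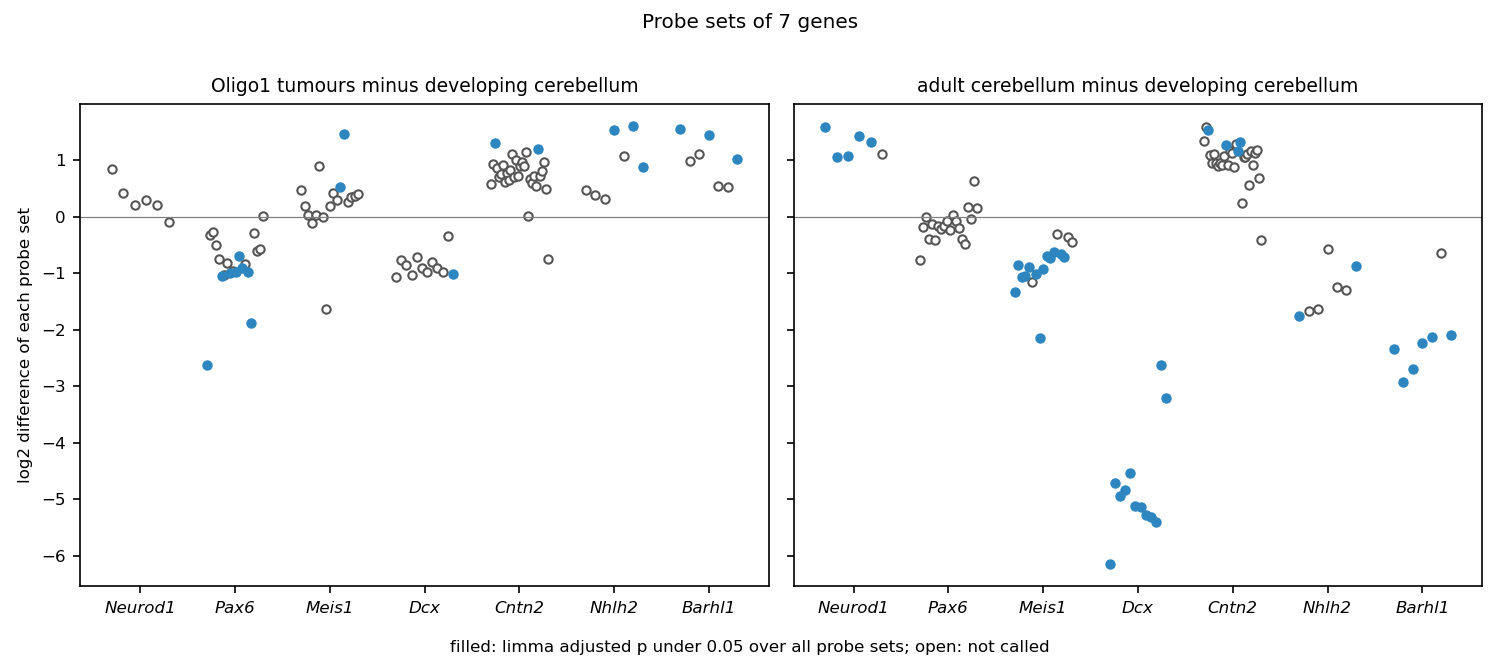
Log2 difference of every probe set (vertical axis) of 7 genes, Oligo1 tumours minus developing cerebellum and adult minus developing cerebellum; each point is a probe set and filled points passed the test over all probe sets. In the Oligo1 panel a Pax6 probe set reaches -2.62, and in the adult panel a Meis1 probe set reaches -2.15, apart from the rest of their genes.

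The gene whose course over the 24 arrays was nearest to Atoh1, after each gene's mean was taken off, was the member Nhlh1, with a mean absolute difference of 0.40 on the log2 scale. Insm1 ranked 12, Barhl1 125 and Dcx 171 among all genes tested, while Neurod1 ranked 8289. The 5 nearest genes outside the members were Hsd11b2 (0.42), which encodes an enzyme that inactivates glucocorticoids, the cell cycle genes Mki67 (0.42), Cdk6 (0.43) and Top2a (0.48), and the spindle gene Nusap1 (0.49). Hsd11b2 averaged 10.64 in hGFAP and 11.08 in Oligo1 tumours, against 5.39 in adult and 9.54 in developing cerebellum, and read 7.38 in hGFAP tumour 5. Mki67 averaged 10.73 and 11.58 in these tumour groups, against 5.35 and 10.20 in adult and developing cerebellum. The likeness is a description over arrays that share their groups.

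Other genes of precursors and the Sonic hedgehog response, a list of 19 of which 17 were tested, were mostly higher in tumours than in adult cerebellum. In hGFAP tumours 11 were called higher and 1 lower, or 11 and 2 without tumour 5 (median 0.86 with it, against -0.02 over all genes), and in Oligo1 tumours 11 higher and 3 lower (median 1.32, against 0.04). Sfrp1, a secreted Wnt antagonist, was 4.32 higher in hGFAP tumours (SE 0.48, limma adjusted p = 8.67e-07), and the cell cycle gene Ccnd2 was 4.06 higher (SE 0.44). In Oligo1 tumours Ccnd2 was 4.51 higher and Sfrp1 4.47 higher. The adult mean of Sfrp1 was 7.31, under the filter value. The size of its rise in both tumour groups therefore carries the limit given for the members. En2, a homeobox gene of the midbrain and cerebellum, was lower in both (-1.04 and -1.15), as Eya1 was in Oligo1 tumours (-1.29). Against developing cerebellum 5 were higher and 1 lower in hGFAP tumours, or 11 and 1 without tumour 5, and 7 were higher and 1 lower in Oligo1 tumours. There Ptch1, the Sonic hedgehog receptor and target, was 1.35 higher in hGFAP tumours (SE 0.10, adjusted p = 2.84e-09), and Hhip, which binds and limits the ligand, was 1.92 higher in Oligo1 tumours (SE 0.35, adjusted p = 0.000171). Adult against developing cerebellum had 4 higher and 7 lower, with Ccnd2 at -3.84.

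Genes of mature granule neurons were lower in tumours. All 10 were lower than adult in hGFAP tumours (median -2.26) and in Oligo1 tumours (median -3.67). Grm4, a glutamate receptor, had a difference of -2.92 in hGFAP tumours ( SE 0.62, limma adjusted p = 0.000512), and Gabra6 had a difference of -5.11 in Oligo1 tumours (SE 0.92, adjusted p = 4.03e-05). Against developing cerebellum 4 were higher in hGFAP tumours and 0 higher and 1 lower in Oligo1 tumours. By limma, 9 of 10 were higher in adult than in developing cerebellum, with Gabra6 at 7.38. Genes of migrating and differentiating granule neurons, 13 tested, were divided. Against adult, 5 were higher and 2 lower in hGFAP and 6 higher and 5 lower in Oligo1 tumours, and against developing cerebellum 3 were higher and 5 lower in hGFAP tumours (5 and 6 without tumour 5), and 4 higher and 8 lower in Oligo1 tumours. Unc5c, a netrin receptor, was lower than in developing cerebellum by -1.79 in hGFAP (SE 0.44) and -2.88 in Oligo1 tumours (SE 0.44), and the cell cycle inhibitor gene Cdkn1b was higher, by 0.89 and 1.22.

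Of 18 tested relatives of the members, 3 were higher and 7 lower than adult in hGFAP tumours (4 and 7 without tumour 5), and 4 higher and 9 lower in Oligo1 tumours. Their median difference was -0.16 and -0.52, against -0.02 and 0.04 over all genes, which were called lower more often than higher in hGFAP tumours too. Neurod4, a relative of Neurod1, was 3.93 higher in hGFAP (SE 0.40, limma adjusted p = 4.09e-07) and 4.18 higher in Oligo1 tumours (SE 0.40, adjusted p = 4.05e-08), and Neurod6 was 2.00 and 2.70 higher. The adult means of Neurod4 and Neurod6 were 5.06 and 6.87, under the filter value. The sizes of these rises therefore carry the limit given for the members. Cntn6 and Cntn4, contactins like Cntn2, were lower, at -2.38 and -1.55 in hGFAP and -3.62 and -2.42 in Oligo1 tumours. Against developing cerebellum 2 were higher and 9 lower in hGFAP tumours (2 and 10 without tumour 5) and 2 higher and 11 lower in Oligo1 tumours. Meis2, the relative of Meis1, had differences of -3.93 (SE 0.86) and -4.67 (SE 0.86), while Barhl2, the relative of Barhl1, was 1.46 and 1.11 higher. Meis2 was also lower in adult than in developing cerebellum, by -4.18 (SE 0.93).

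Partners and antagonists of helix-loop-helix factors, 11 tested, were higher than adult for 7 genes and lower for 2 in hGFAP tumours, and higher for 7 and lower for 3 in Oligo1 tumours. Tcf3, which encodes E proteins that pair with Atoh1 and its kin, was 1.18 higher in hGFAP (SE 0.21) and 1.66 higher in Oligo1 tumours (SE 0.21, limma adjusted p = 6.83e-07). The genes of the Id inhibitors of such pairs were divided. Id4 was lower, at -0.81 in hGFAP tumours (SE 0.28) and -1.99 in Oligo1 tumours (SE 0.28), and Id2 was lower in Oligo1 tumours (-0.58, SE 0.17). Id3 and Id1 were higher in hGFAP tumours, by 1.20 (SE 0.31, limma adjusted p = 0.00292) and 1.05 (SE 0.19). Id1 was also 1.09 higher in Oligo1 tumours (SE 0.19). Id3 averaged 7.89 in hGFAP and 7.55 in Oligo1 tumours, above its adult mean in both. The adult means of Id3 and Id1 were 6.69 and 6.76, under 7.61. Between the tumour groups Id4 was 1.19 higher in hGFAP tumours (SE 0.25, adjusted p = 0.00773), the larger of 2 calls in this list. Against developing cerebellum 2 were higher and 3 lower in either tumour group.

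Marker lists of other cells give the tissue around these genes. Against adult cerebellum, Purkinje cell genes were lower for 7 of 7 in both tumour groups, and interneuron and unipolar brush cell genes for 5 of 6 in hGFAP (6 without tumour 5) and 6 of 6 in Oligo1 tumours. Astrocyte and Bergmann glia genes were higher for 1 and lower for 3 of 7 in hGFAP tumours and higher for 1 and lower for 6 of 7 in Oligo1 tumours. Myelin genes were lower for 3 of 5 in hGFAP (4 without tumour 5) and 5 of 5 in Oligo1 tumours, oligodendrocyte precursor genes higher for 4 of 6 (6 without tumour 5) and 3 of 6, and endothelial genes lower for 2 of 5 in each, with 1 higher in Oligo1 tumours. Proliferation genes were higher for 7 of 7 in both. Against developing cerebellum, proliferation genes were higher for 1 of 7 in hGFAP tumours (7 of 7 without tumour 5) and 4 of 7 in Oligo1 tumours, and myelin genes for 5 of 5 and 0 of 5. Interneuron and unipolar brush cell genes were lower there for 3 of 6 (4 without tumour 5) and 6 of 6, Purkinje cell genes for 0 and 3 of 7 with 1 higher in each, and endothelial genes for 4 and 3 of 5. Astrocyte and Bergmann glia genes were higher for 3 and lower for 1 of 7 in hGFAP tumours (4 and 1 without tumour 5) and higher for 2 and lower for 2 in Oligo1 tumours, and oligodendrocyte precursor genes higher for 1 of 6 in hGFAP (5 without tumour 5) and 2 of 6 in Oligo1 tumours. The part of these cells in the members' differences was not tested.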

How the data were processed

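The labels give TRIzol extraction and a biotin label, and 24 arrays of 1 colour. As deposited, the values are log2 intensities. The authors made them with RMA; oligo 1.14 and R 2.15 are the tools that the submitters' processing notes name. RMA corrects background, quantile normalizes and summarises probes, so values are relative. The array values were used without scan dates or probe coordinates, and 0 columns were left out. Promoter windows are those of RefSeq on GRCm38.p6.

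Probe sets with 1 platform symbol (213361; 5107 had several and 23108 none, and those were left out) were summarised per gene by median polish, which gave 20893 genes (2655 from a single probe set). The filter asked for at least 3 arrays above the table's median, 7.61, and left 10983 genes. Per array, 7903 to 9362 genes exceeded it. Precision is limited by how many arrays there are. Contrasts came from lmFit and eBayes (limma 3.58.1, R 4.3.3) over all 24 arrays in 4 groups, taken from titles and genotypes, with Benjamini-Hochberg adjustment. Probe sets were fitted alike. Closest arrays correlated at 0.990 (hGFAP tumours 1 and 2). Where samples share an animal is not stated.

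Members, the 13 gene lists, tests and the naming rule were chosen with earlier results of these data known. All members are named, and, of each list, up to 2 called genes with the largest rise and 2 with the largest fall in a comparison. Id1 and Id2 are named as well, beside Id3 and Id4. For genes most like Atoh1, the 5 with the smallest mean absolute difference over centred values are named, leaving out members, unnamed gene models, microRNAs, receptors of smell and immunoglobulin segments.

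On simulated data with 200 changed among 10983 genes, the fit recovered 89% of changes of log2 1 for hGFAP tumours against adult, 81% for Oligo1 against adult, 69% and 71% for hGFAP and Oligo1 against developing, 85% between tumour groups and 71% for adult against developing. The simulated noise was normal, with the same spread in every group, no strain effect and fewer changed genes than were called here. These rates hold for that setting and not for unequal groups such as these. Replicate numbers of tumours did not pair them: same-numbered tumours correlated at -0.495 to 0.591 in their deviations, with 3 of 8 over 0.1.

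Alternatives were the mean of probe sets, no filter, a stricter filter (9.34), quantile normalization again, centring, trend and robust eBayes, only the groups compared, array weights, strain as a covariate, mixed-strain adults only, tumours 1 to 4 or 5 to 8, naming style or replicate block, and leaving out each array. Figures used matplotlib 3.10.9 (Python 3.11.15).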

Additional observations from a re-analysis of the deposited data

Results flagged for a closer look

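In 8 of 30 sets of values (10 genes in 3 groups of 5 or 8 arrays), 1 array lay far from the rest by Dixon's ratio, the gap to the nearest array over the whole range. Chance marks about 1 in 20 such sets, but these sets share arrays, so the flags are not independent. Of the 8 flagged, 6 were hGFAP tumour 5, which was the lowest of its group. Its ratio was 0.713 for Atoh1 (6.62 against 10.59 in the next lowest tumour), 0.566 for Barhl1, 0.841 for Nhlh1, 0.682 for Nhlh2, 0.78 for Insm1 and 0.696 for Dcx. The mature granule mean of this array was 11.15, against 11.39 to 11.66 in adult cerebellum, and its proliferation mean was 7.01, against 6.20 to 6.65 in adult cerebellum. The part of normal tissue in this sample was not tested.

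The other 2 were hGFAP tumour 7, with the lowest Neurod1 (11.08, ratio 0.685) and the lowest Cntn2 (9.11, ratio 0.662) of its group. Neurod1 and Cntn2 in hGFAP tumour 5 read 12.16 and 10.80.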

How the results depend on the processing

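Against adult cerebellum, leaving out 1 array gave 7 to 7 members for hGFAP tumours and 8 to 9 for Oligo1 tumours. Against developing cerebellum they varied. For hGFAP tumours (2 members) no filter and the stricter filter gave 1 each, only the 2 groups compared 0, array weights 9, strain as a covariate 0, tumours 1 to 4 gave 8 and tumours 5 to 8 gave 0. Of all genes, 38.7% were called higher and 22.8% lower with array weights, 28.1% and 16.2% with tumours 1 to 4, 10.9% and 10.7% with only the 2 groups, and 9.01% and 10.4% with tumours 5 to 8. They were 9.65% and 11.2% with no filter, and 16.4% and 12.2% with the stricter filter. Leaving out 1 array gave 0 to 7, the 7 without hGFAP tumour 5. For Oligo1 tumours (3 members) centring gave 5, only the 2 groups compared 7, array weights 9, strain 0, tumours 1 to 4 gave 7, tumours 5 to 8 gave 1, and leaving out 1 array 2 to 4. Shares of all genes were 43.5% and 28.4% with array weights, 38.4% and 24.5% with tumours 1 to 4, 30.2% and 20.3% with only the 2 groups, 24.7% and 22.7% with centring, and 15.6% and 14.1% with tumours 5 to 8. Between tumour groups (0 members) the mean of probe sets gave 1 (10.4% of all genes higher and 10.6% lower) and centring 1 (11.3% and 9.82%). Array weights gave 2 (20.7% and 18.8% of all genes), leaving out 1 array 0 to 2, and the replicate block 0 (1.03% and 0.619%). Adult against developing (9 members) gave 6 to 7 when 1 array was left out. Strain can be told from group only through the adult arrays. Array medians lay up to 0.321 from their mean, and the median difference over all genes was 0.12 for Oligo1 tumours against developing cerebellum. The causes were not tested.

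Signs turned only in differences that had not passed with all arrays, and no value with the turned sign passed. Nhlh2, Insm1 and Meis1 in hGFAP tumours against developing passed as higher under other alternatives (adjusted p = 4.4e-06, 0.0182 and 0.00129 with array weights). With tumours 5 to 8 only, the values were -0.13 for Pax6 and -0.19 for Cntn2 in hGFAP tumours against adult, and -0.15 for Nhlh2 and -0.019 for Meis1 against developing. With tumours 1 to 4 only, Pax6 in hGFAP tumours against developing was 0.083, and between tumour groups Nhlh2 was 0.066, Meis1 0.029 and Dcx 0.26. With array weights, between tumour groups, Nhlh2 was 0.089, Insm1 0.0063, Meis1 0.055 and Dcx 0.30. With strain as a covariate, Insm1 was -0.19 and Pax6 0.14 in hGFAP tumours against developing, and Pax6 0.011 in adult against developing. With 1 array left out, the range in hGFAP tumours against adult was -0.038 to 0.12 for Pax6 and -0.028 to 0.28 for Cntn2. Against developing it was -0.59 to 0.18 for Pax6 in hGFAP and -0.34 to 0.59 for Neurod1 in Oligo1 tumours. Between tumour groups it was -0.49 to 0.022 for Nhlh2 and -0.19 to 0.24 for Dcx, and in adult against developing -0.63 to 0.15 for Pax6. For the course, Barhl1 from embryonic day 15 to birth was 0.80 with the mean of probe sets.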
